A study of Mus musculus with 11 samples.

Results

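The genes described here are 10 transcription factors that set the identity of stomach and gut epithelium: Gata4, Gata6, Foxa2, Foxa3, Foxq1, Spdef, Klf4, Hnf4a, Cdx1 and Cdx2. They were listed by name and known function, with earlier results of these data known, and are 10 of the 34866 gene identifiers in the table. Of these, 8 carried enough counts to be tested among 14889 genes. RNA was sequenced in bulk from mouse corpus mucosa, the acid-secreting lining of the stomach body, in 11 samples. There were 2 wild-type controls and 3 samples of each of the lines ATP4B-DTR, GIF-DTR and, carrying both transgenes, GIF/ATP4B-DTR; where 3 values stand together below, they follow this order of lines. DTR is the diphtheria toxin receptor, which makes mouse cells sensitive to the toxin. By the names of the lines it is tied to Atp4b, a proton pump subunit of parietal cells, to Gif, the intrinsic factor made by mouse chief cells, or to both, and the study's design text speaks of ablating these cell types. The labels give no toxin dose, collection time, age, sex or batch, and do not say whether the wild-type animals received toxin. They also do not say that each sample came from a separate animal, so p-values measure only the spread between these samples.

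GATA and FOXA factors open and occupy the enhancers of endoderm and keep them active in the adult stomach, where Hnf4a joins them in driving gastric epithelial genes. Foxq1, Spdef, Klf4 and Foxa3 act later, in the maturation of surface (pit) cells and of mucus-secreting cells. Cdx1 and Cdx2 are homeobox factors of the intestine, normally silent in the stomach, and their appearance in gastric epithelium is a hallmark of intestinal metaplasia.

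The deposited values are estimated counts, given below as counts per mega counts (CPM), with libraries scaled by edgeR's TMM method, a trimmed mean of gene-wise ratios. Foxa2 was the only factor called changed in any comparison, and Cdx2 had 0 counts in 9 of 11 samples, so the sequence before the first listed start site of each is shown. Both come from the RefSeq promoter table (GRCm38.p6), which held 6 of the 10 factors among 32851 entries, and are written 5′ to 3′ on the gene's strand. Capitals mark the letters CCAAT and the forkhead motif TGTTTAC, either of them on either strand; here both appear as their reverse complements, ATTGG and GTAAACA. The Cdx2 stretch stops where the GENCODE gene model begins.
Foxa2, chr2:148046970-148047219, minus strand: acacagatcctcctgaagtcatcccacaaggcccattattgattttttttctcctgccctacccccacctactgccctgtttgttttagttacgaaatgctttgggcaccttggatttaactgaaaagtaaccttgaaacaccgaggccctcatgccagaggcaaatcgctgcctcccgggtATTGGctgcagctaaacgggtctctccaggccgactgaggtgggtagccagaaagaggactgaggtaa
Cdx2, chr5:147307271-147307499, minus strand: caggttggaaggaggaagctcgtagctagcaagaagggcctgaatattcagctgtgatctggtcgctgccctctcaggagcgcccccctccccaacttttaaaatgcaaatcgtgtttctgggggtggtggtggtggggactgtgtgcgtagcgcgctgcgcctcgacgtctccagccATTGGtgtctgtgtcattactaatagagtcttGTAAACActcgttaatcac
Counted back from the start site, CCAAT began at -68 in Foxa2 and at -72 in Cdx2, and these letters occur in 33.8% of all promoters of this length. The forkhead letters began at -40 in Cdx2 and occur in 3.17% of promoters. Over the 250 bases before the start site, Foxa2 held 6 CpG dinucleotides and Cdx2 13, against a median of 6 over all entries. Start sites number 2 and 3 of Foxa2, not shown, held 20 and 13. These matches describe the letters only and say nothing of binding in these samples.

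The libraries held 20.7 to 27.9 M counts (M, mega). The genes that name the lines were measured first. Atp4b was 4575 ± 298 CPM (SD, n = 2) in controls and 599 ± 110, 2797 ± 667 and 290 ± 160 (n = 3 each) in the lines, and was called lower in both lines with its transgene (edgeR adjusted p = 0.000836 and 7.9e-05). In GIF-DTR the difference of Atp4b was -0.71 (edgeR adjusted p = 0.224). Gif was 702 and 2303 CPM in the controls; it fell by 3.36 in the GIF line and by 3.59 in the double line on the log2 scale (edgeR adjusted p = 0.0169 and 0.00565); the first call was lost without control 2 (-2.26, edgeR adjusted p = 0.106). In ATP4B-DTR its difference from control was -1.24 (edgeR adjusted p = 0.245). Chief cell markers summed to 85896 and 192480 CPM in the controls and to 17004 to 62016, 5108 to 22615 and 2823 to 12425 in the lines, with 0, 3 and 3 of 5 tested called lower; the sums in ATP4B-DTR thus lay below both controls too. The 13 pan-epithelial genes (Epcam, Cdh1, keratins and the like) summed to between 8572 and 13521 CPM over all samples. Of these 13, 1 was called higher and 1 lower in ATP4B-DTR, 0 and 0 in GIF-DTR, and 3 and 0 in GIF/ATP4B-DTR. Markers of other tissue layers varied within groups: smooth muscle genes summed to 359 and 2135 CPM in the 2 controls, and fibroblast genes to 38.5 and 374. Endothelial genes summed to 6.07 and 59.9 CPM in the controls and to 5.0 to 9.7 in GIF/ATP4B-DTR, where 1 of 4, Kdr, was called lower. Genes of lymphocytes and plasma cells summed to 8.0 and 60.5 CPM in the controls, 3.23 to 4.65, 5.55 to 8.41 and 1.92 to 4.06 in the lines; of the 2 tested, Jchain was called lower in ATP4B-DTR, and Jchain and Ptprc in GIF/ATP4B-DTR. Macrophage genes summed to 13.7 and 69.5 CPM in the controls and to 95.5 to 170 in GIF-DTR, with 0 of 6 called. Pancreatic acinar genes summed to 17.7 and 31.3 CPM in the controls and to 7.57 to 12.3 in GIF/ATP4B-DTR, where 1 of 5 tested, Cel, was called lower. The part of these cells in the factors' values, that of Foxa2 in GIF/ATP4B-DTR included, was not tested. The 4 Y-linked genes summed to 129 to 195 CPM in the controls, GIF/ATP4B-DTR and ATP4B-DTR 1, and to 2.50 to 4.91 CPM in the other 5 samples. All 3 GIF-DTR samples lie on the low side, so in GIF-DTR against control, and in GIF/ATP4B-DTR against GIF-DTR, this difference and the line cannot be told apart. In bulk mucosa, fewer cells of a type and less RNA per cell cannot be told apart either.

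**Figure D1:**
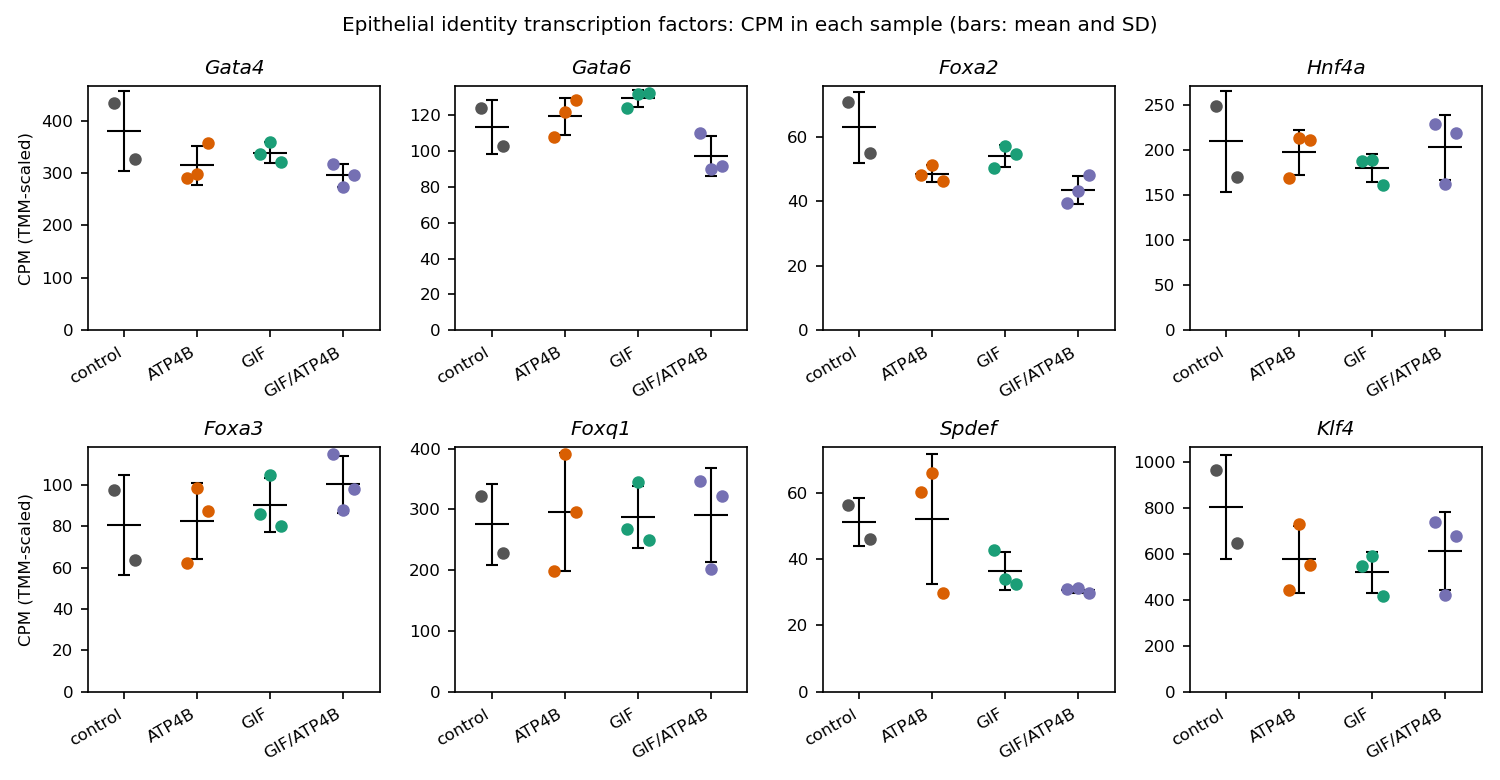
CPM of the 8 tested factors in each of the 11 samples, by group (ATP4B, GIF and GIF/ATP4B stand for the 3 DTR lines); black bars give the mean and SD, and each vertical axis starts at 0. Foxa2 in GIF/ATP4B-DTR lies below both controls, while the group means of Foxq1 lie between 275 and 295 CPM.

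None of the 8 factors was called higher in any line, and 1 was called lower, Foxa2 in GIF/ATP4B-DTR. In that line 4 of the 8, Gata4, Foxa2, Spdef and Klf4, lay at -0.36 to -0.74 on the log2 scale, and Klf4 lay at -0.63 in GIF-DTR. With 2 controls, a factor that was not called is not shown to have kept its level. Of all 14889 genes tested, 21.6%, 16.8% and 33.6% were called changed against control in the 3 lines; the corresponding counts among the 8 factors were 0, 0 and 1, and whether they differ from those shares was not tested. Split by direction, 12.2%, 9.97% and 18.2% of all genes were called higher and 9.39%, 6.82% and 15.4% lower. The count at an unadjusted edgeR p under 0.05 was 1, 1 and 3 of 8, beside 34.8%, 31.4% and 44.5% of all genes. With DESeq2 the counts called were 1, 0 and 3, beside 26.7%, 22.6% and 38.5% of all genes. With scaling by the pan-epithelial genes they were 0, 0 and 4, beside 11.5%, 7.11% and 28.2%. Of those scaling genes 3 were themselves called higher in GIF/ATP4B-DTR, so this scaling is not neutral there. The median size of the 8 log2 differences was 0.09, 0.20 and 0.34 in the 3 lines, beside 0.43, 0.39 and 0.55 over all genes tested. Because the 3 comparisons use the same 2 controls, their values are given side by side and are not independent of each other. Over the 11 samples, the highest CPM of a factor was 1.47 (Gata6) to 2.31 (Klf4) times its lowest, and between 50% and 88.3% of tested genes had a wider range than these factors.

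**Figure D2:**
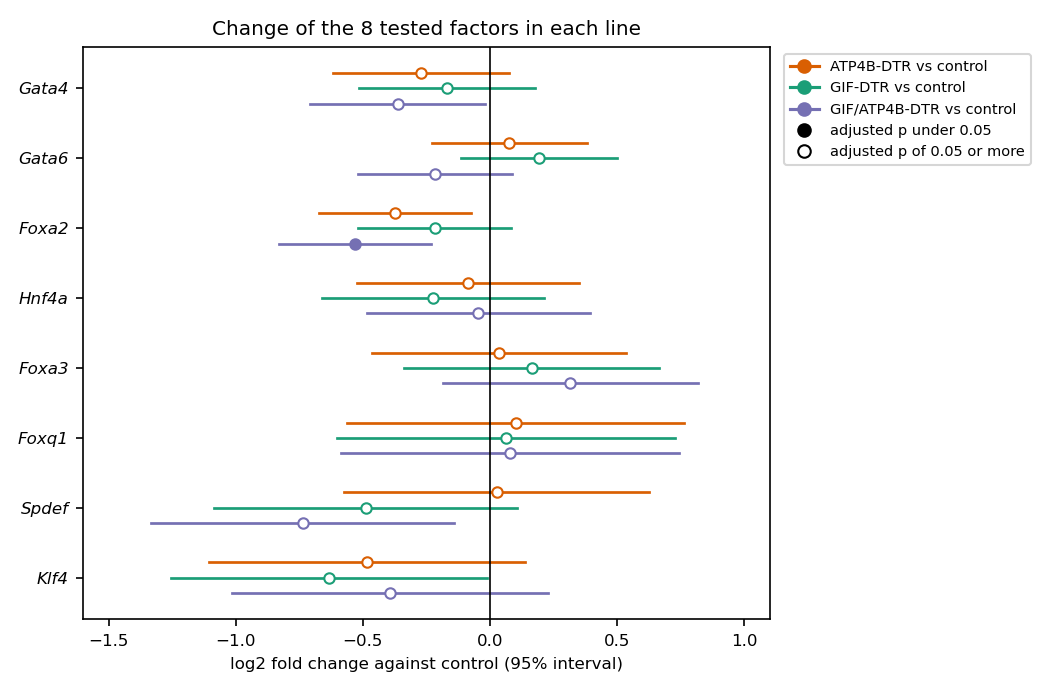
Log2 fold change of each factor in each line against control, with the 95% interval; filled points have an edgeR adjusted p under 0.05. The only filled point is Foxa2 in GIF/ATP4B-DTR, at -0.53.

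Gata4, a zinc finger factor needed for the columnar lining of the stomach, lies on chromosome 14 (63198922 to 63271692, minus strand, mm10). It read 435 and 326 CPM in the controls. In ATP4B-DTR it read 290, 297 and 357 CPM, and in GIF-DTR 336, 360 and 320. The GIF/ATP4B-DTR samples read 317, 273 and 297 CPM, so all 3 samples lay below both controls. The single lines overlapped the controls, because control 2 sat well under control 1. The log2 differences from control were -0.27 ± 0.16 (SE), -0.17 ± 0.16 and -0.36 ± 0.16, with edgeR adjusted p = 0.248, 0.518 and 0.0960. A difference of -0.71 to -0.02 is thus within the 95% interval for GIF/ATP4B-DTR.

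Gata6, the close relative of Gata4 on chromosome 18, was the steadiest of the 8. It read 124 and 103 CPM in the controls, 108, 122 and 128 in ATP4B-DTR, 124, 132 and 132 in GIF-DTR, and 110, 90.3 and 91.9 in GIF/ATP4B-DTR. The GIF-DTR samples all lay above both controls, though ATP4B-DTR 3 lay above GIF-DTR 1, while GIF/ATP4B-DTR 2 and 3 were the lowest of all 11. None of these differences from control passed the test, at 0.08, 0.19 and -0.22 on the log2 scale (edgeR adjusted p = 0.732, 0.390 and 0.247). GIF/ATP4B-DTR lay wholly below GIF-DTR, by -0.41 ± 0.12, which did not pass either (edgeR adjusted p = 0.125). Gata6 was called in that comparison by DESeq2 (adjusted p = 0.0184) and when the libraries were scaled by the pan-epithelial genes (edgeR adjusted p = 0.0439). With an index of the Y-linked genes as a covariate, the difference was -0.21 (edgeR adjusted p = 0.852). That index separates GIF/ATP4B-DTR wholly from GIF-DTR, so this fit cannot tell the Y-linked difference from the line.

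Hnf4a, a nuclear receptor of gastric and intestinal epithelium on chromosome 2, read 249 and 170 CPM in the controls. The lines read 169, 213 and 211 (ATP4B-DTR), 188, 190 and 162 (GIF-DTR) and 229, 162 and 219 (GIF/ATP4B-DTR). Every group overlapped the controls. The log2 differences were -0.09, -0.22 and -0.05, each with a standard error of 0.20. The 95% interval in GIF/ATP4B-DTR, -0.48 to 0.39, leaves room for a change of that size either way.

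Foxa2, a forkhead factor that opens endodermal chromatin, lies on chromosome 2 (148042877 to 148046969, minus strand), just below the first sequence printed above. It read 70.8 and 55.1 CPM in the controls, 48.2, 51.3 and 46.3 in ATP4B-DTR, 50.4, 57.3 and 54.7 in GIF-DTR, and 39.4, 43.3 and 48.1 in GIF/ATP4B-DTR. The ATP4B-DTR and GIF/ATP4B-DTR samples all lay below both controls, whereas GIF-DTR overlapped control 2. In GIF/ATP4B-DTR Foxa2 fell by 0.53 ± 0.14 (SE) on the log2 scale, to 0.69 of the control level (95% interval 0.56 to 0.85, edgeR adjusted p = 0.0117). In ATP4B-DTR the difference was -0.37 ± 0.14 (edgeR adjusted p = 0.0736; DESeq2 adjusted p = 0.0383), and in GIF-DTR -0.22 ± 0.14 (edgeR adjusted p = 0.311). The call in GIF/ATP4B-DTR was lost without control 1 (-0.34, edgeR adjusted p = 0.129) and when only the 2 groups entered the fit (-0.50, edgeR adjusted p = 0.0600). No other pair of groups differed by the test for Foxa2, and the interaction of the genotypes was 0.06 ± 0.18 (edgeR adjusted p = 0.921).

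The 4 factors of pit and mucous cells were called in none of the 3 comparisons with control. Foxa3, a forkhead factor on chromosome 7, read 97.7 and 63.5 CPM in the controls, 62.3, 98.5 and 87.3 in ATP4B-DTR, 85.9, 105 and 80.1 in GIF-DTR, and 115, 87.8 and 98.1 in GIF/ATP4B-DTR. It overlapped the controls in every line, with differences of 0.04, 0.16 and 0.32 on the log2 scale (edgeR adjusted p = 0.924, 0.680 and 0.307).

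Foxq1, which surface cells need to make the mucin Muc5ac, lies on chromosome 13. It read 322 and 229 CPM in the controls, 198, 392 and 296 in ATP4B-DTR, 268, 345 and 250 in GIF-DTR, and 347, 202 and 322 in GIF/ATP4B-DTR. The group means were 275 ± 66.1, 295 ± 96.9, 288 ± 50.4 and 291 ± 77.5 CPM (SD). The log2 differences were 0.10, 0.06 and 0.08, and the 95% interval in GIF/ATP4B-DTR ran from -0.59 to 0.74. An antisense gene that overlaps Foxq1, A530084C06Rik, had 0 counts in all 11 samples.

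Muc5ac itself, the main mucin of pit cells, read 13836 and 7818 CPM in the controls and 1624 to 6779 CPM in the 9 line samples, none of which reached the controls. It fell by 1.79 in GIF/ATP4B-DTR on the log2 scale (edgeR adjusted p = 0.0142), and this call was lost without control 1 (-1.32, edgeR adjusted p = 0.100). Muc5ac was the only one of 10 pit products called in any line against control. Among the 9 line samples, Foxq1 and the mean log2 CPM of the pit products gave a Pearson r of 0.84 and a Spearman rho of 0.78, and Foxa3 an r of 0.84 and a rho of 0.67. Without ATP4B-DTR 1 and GIF-DTR 2, the samples farthest from the median pit level, r was 0.84 for Foxq1 and 0.46 for Foxa3, so the relation of Foxa3 rested on those samples. Klf4 had an r of 0.68 and a rho of 0.65 (r 0.83 without those samples), and Hnf4a an r of 0.60 and a rho of 0.58 (r 0.76). The r of Gata4, Foxa2 and Gata6 was 0.42, 0.23 and 0.22, and that of Spdef -0.28, which became 0.57 without those samples. ATP4B-DTR 1 was the lowest sample in Foxq1, in Foxa3 and in the pit products. These values describe samples that share tissue composition, 8 factors were looked at, and no p is given.

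Spdef, an ETS factor of mucous secretory cells on chromosome 17, was the most uneven within a group. It read 56.3 and 46.0 CPM in the controls and 60.4, 66.1 and 29.7 in ATP4B-DTR, where sample 3 had less than either of the others. It read 43.0, 33.9 and 32.5 CPM in GIF-DTR and 31.1, 31.2 and 29.7 in GIF/ATP4B-DTR. All 6 samples of the lines with the GIF transgene lay below both controls. The log2 differences were 0.03 ± 0.27, -0.49 ± 0.27 and -0.74 ± 0.27 (SE), with edgeR adjusted p = 0.957, 0.246 and 0.0559, so none passed. In GIF/ATP4B-DTR Spdef was called by DESeq2 (adjusted p = 0.0301), and in 5 other alternatives. Without ATP4B-DTR 3 it was called lower than control in both lines with the GIF transgene (edgeR adjusted p = 0.0483 and 0.00410). Without that sample both lines were also called lower than ATP4B-DTR, at -0.80 and -1.04 on the log2 scale (edgeR adjusted p = 0.0380 and 0.0361).

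Klf4, a zinc finger factor of post-mitotic surface cells on chromosome 4, was the most abundant factor. It read 966 and 645 CPM in the controls, 444.7, 731 and 552 in ATP4B-DTR, 547, 593 and 418 in GIF-DTR, and 739, 421.8 and 679 in GIF/ATP4B-DTR. Only the GIF-DTR samples all lay below both controls. The log2 differences were -0.48, -0.63 and -0.39, each with a standard error of 0.28 (edgeR adjusted p = 0.253, 0.151 and 0.305). The 8 immediate early genes, which respond within minutes to handling and stress, summed to 452 and 548 CPM in the controls and to 520 to 1112 CPM in the lines; Klf4 can respond in the same way, and its part in these values was not tested.

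Across the 8 factors, groups did not overlap for 1 factor in ATP4B-DTR against control (Foxa2), 3 in GIF-DTR (Gata6, Spdef and Klf4) and 3 in GIF/ATP4B-DTR (Gata4, Foxa2 and Spdef). Over all tested genes the groups did not overlap for 48.6%, 48.0% and 56.3% respectively. Between the lines, no factor was called. The share of all genes called was 0.49% between the single lines, 0% between the double line and ATP4B-DTR, and 2.53% between the double line and GIF-DTR. Groups did not overlap for 16.9%, 15.1% and 26.4% of genes in these comparisons. For the double line against ATP4B-DTR, where edgeR called 0 genes, 1554 genes (10.4%) had an unadjusted edgeR p under 0.05. Among the 8 factors 2 did, Gata6 (-0.29) and Spdef (-0.76). DESeq2 called 1.87% of genes there and 0 of the 8 factors. In these comparisons between lines, the groups did not overlap for 0, 0 and 4 of the 8 factors. The 4, Gata4, Gata6, Foxa2 and Spdef, lay wholly lower in GIF/ATP4B-DTR than in GIF-DTR. These groups also differ wholly in the Y-linked genes, and with that index as a covariate the share of all genes called was 0.101%. Because index and line cannot be told apart here, the lower share does not show which of them the calls follow. The interaction of the genotypes, that is, how much the difference made by the GIF transgene depends on the ATP4B transgene, was called for 0 of the 8 factors and for 0.651% of all genes. At an unadjusted edgeR p under 0.05 it held 1 factor, Gata6 (-0.48 ± 0.19, edgeR adjusted p = 0.240), and 15.6% of all genes, and DESeq2 called 0 of the 8.

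Cdx1 and Cdx2 had few or no counts in every group. Cdx1 had 1 count in control 1, 2 counts in GIF/ATP4B-DTR 1 and 0 in the other 9 samples. Cdx2 (chr5:147300805-147307270, minus strand), whose upstream sequence is printed above, had 5 counts in ATP4B-DTR 3, 1 in GIF/ATP4B-DTR 3 and 0 in the other 9. The 5 counts equal 0.207 CPM, with an exact Poisson 95% interval of 0.0673 to 0.483 CPM. A count of 0 allows up to 3 counts as a one-sided limit, which is 0.107 to 0.166 CPM in these libraries; the upper end of the 2-sided Poisson interval is 0.131 to 0.205 CPM. Intervals and limits cover counting error only. Both genes therefore failed the filter on low counts and were not tested, and no fold is given. ATP4B-DTR 3 also held 171 counts of Pdx1, a homeobox factor of the antrum, duodenum and pancreas, at 7.08 CPM, and 337 counts of Nkx6-3, another antral factor, at 14.0 CPM; their part in the Cdx2 counts was not tested. GIF-DTR 2, with 206 counts of Pdx1 and 247 of Nkx6-3, had 0 counts of Cdx2. Gast, the gastrin gene of antral endocrine cells, had 42 counts (1.74 CPM) in ATP4B-DTR 3 and up to 41 in GIF-DTR. In the controls and GIF/ATP4B-DTR it had at most 1 count. Whether antral tissue contributed to any of these values was not tested.

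Median log2 differences from control in the 3 lines were 0.83, 0.51 and 0.44 over the tested further intestinal factors and 0.44, 0.19 and 0.30 over the tested intestinal products. Of 6 further intestinal transcription factors, Isx and Atoh1 (0 counts of Atoh1 in all samples) were too low to test. Ascl2, a factor of intestinal stem cells, was called higher in all 3 lines, from 0.284 ± 0.147 CPM (SD, n = 2) in controls to 2.14 ± 1.21, 3.63 ± 1.32 and 5.24 ± 3.25 (n = 3 each); the ATP4B-DTR and GIF-DTR calls were lost without control 1 (edgeR adjusted p = 0.110 and 0.0709), and the former also without control 2 (edgeR adjusted p = 0.0619). Of 19 intestinal products 16 were tested, and 2 were called higher and 2 lower in ATP4B-DTR, 1 higher in GIF-DTR, and 2 higher and 2 lower in GIF/ATP4B-DTR. The lower pair was Apoa1 and Apoa4, apolipoproteins of absorptive cells. Apoa1 read 1630 ± 222 CPM in controls and 81.8 ± 13.1, 1229 ± 591 and 62.6 ± 13.9 in the lines. Gpa33, an intestinal surface antigen, was called higher in both lines with the ATP4B transgene (log2 differences 2.15 and 2.32). Fabp2, a fatty acid binding protein, was called higher in GIF-DTR and GIF/ATP4B-DTR (1.32 and 1.95), and Clca1, a goblet cell secretory protein, in ATP4B-DTR (4.49). Calls of these 3 genes also rested on single samples. Gpa33 in ATP4B-DTR and Fabp2 in GIF-DTR were lost without control 2 (edgeR adjusted p = 0.0756 and 0.233), Clca1 without either control (0.0530 and 0.127), and Fabp2 without any of 6 line samples (0.0600 to 0.116).

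Muc2, the main goblet cell mucin, averaged 0.272 to 0.693 CPM in the 4 groups.

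Levels of different factors were compared per kilobase of exon, using GENCODE M21 exon lengths. By the median over 11 samples the order was Klf4 at 194 CPM per kb, Gata4 82.1, Foxq1 61.1, Foxa3 43.1, Hnf4a 39.3, Foxa2 21.3, Gata6 18.7 and Spdef 14.7. Klf4 exceeded Gata4, and Hnf4a exceeded Foxa2, in 11 of 11 samples. Gata4 exceeded Foxq1, and Foxq1 exceeded Foxa3, in 10 of 11, and Foxa2 exceeded Gata6 in 9. Foxa3 against Hnf4a and Gata6 against Spdef held their order in 7 of 11 samples each, and the order followed the groups in part. Hnf4a exceeded Foxa3, and Spdef exceeded Gata6, in both controls, whereas Foxa3 exceeded Hnf4a, and Gata6 exceeded Spdef, in all 6 samples with the GIF transgene. This split was seen after the values were known and is given without a test.

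Ratios of 2 factors within a sample do not depend on how the libraries were scaled. Of the 28 ratios among the 8 tested factors, 4 set both controls apart from all 9 line samples. They were singled out after the values were seen and are described without a test. The share among pairs of other genes was not computed, so whether 4 of 28 is many or few cannot be said. All but that of Gata6 to Foxa2 share Klf4 and are not separate observations. Klf4 was 3.0 and 2.8 times Foxq1 in the controls and 1.67 to 2.25 times in the lines. It was 9.89 and 10.2 times Foxa3 in the controls and 4.81 to 7.43 times in the lines, and 3.87 and 3.79 times Hnf4a against 2.59 to 3.43 times. Gata6 was 1.75 and 1.86 times Foxa2 in the controls and 1.91 to 2.80 times in the lines. A changed ratio shows that the members of a pair changed unequally, not which of them did.

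**Figure D3:**
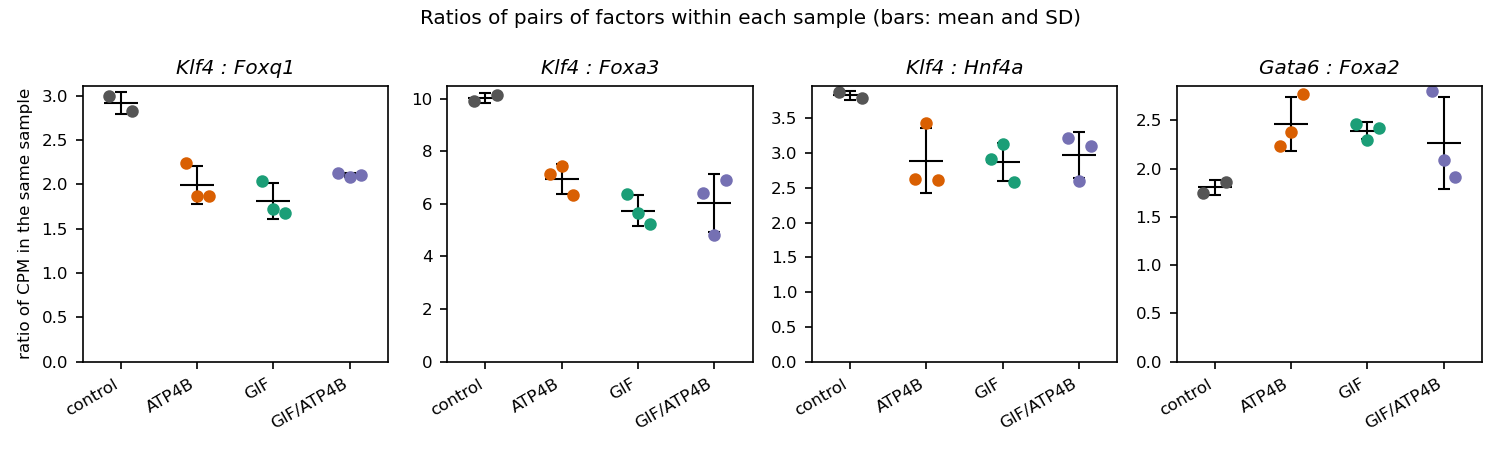
Ratio of the CPM of a pair of factors within each sample, by group (names as in the plot of CPM), with mean and SD as black bars and axes from 0. Both controls lie above all 9 line samples in the 3 ratios with Klf4, and below them in Gata6 to Foxa2, where the nearest line sample is at 1.91.

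Other transcription factors of the same epithelium are given for comparison. Of 15 further endodermal and stomach epithelial factors, 4 were called higher and 1 lower in ATP4B-DTR, 3 and 0 in GIF-DTR, and 5 and 1 in GIF/ATP4B-DTR. These counts stand beside the shares of all genes called of 21.6%, 16.8% and 33.6%, and whether the list differs from the 8 factors was not tested. The median log2 difference of the 15 was 0.56, 0.10 and 0.22, beside -0.01, -0.01 and -0.04 over all genes tested. Foxa1 and Sox2 were called higher in all 3 lines. Foxa1, which shares the forkhead fold and many target sites with Foxa2, read 134 and 119 CPM in the controls. It read 197, 177 and 183 in ATP4B-DTR, 163, 194 and 195 in GIF-DTR, and 221, 189 and 174 in GIF/ATP4B-DTR, above both controls in 9 of 9. Its log2 differences were 0.56, 0.54 and 0.63 (edgeR adjusted p = 0.0193, 0.0270 and 0.00675).

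The ratio of Foxa1 to Foxa2 accordingly was 1.89 and 2.15 in the controls and 3.45 to 4.08, 3.23 to 3.56 and 3.63 to 5.61 in the 3 lines. The pair was chosen after its values were seen. Sox2, a factor of foregut progenitors, read 5.65 ± 0.87 CPM in controls and 14.3 ± 3.05, 11.5 ± 2.49 and 13.2 ± 5.35 in the lines (SD). Its log2 differences were 1.34, 1.03 and 1.22 (edgeR adjusted p = 0.0145, 0.0493 and 0.0137). With the libraries scaled by the pan-epithelial genes, Foxa1 stayed higher than control but was called in none of the lines, and Sox2 was called only in ATP4B-DTR. Without control 2, Foxa1 was likewise called in no line (0.47, 0.46 and 0.54, edgeR adjusted p = 0.137, 0.152 and 0.0686). Without control 1 its call was lost in GIF-DTR alone. Sox2 lost its calls in all 3 lines without either control, with edgeR adjusted p = 0.0933, 0.232 and 0.0867 without control 1 and 0.0609, 0.120 and 0.0510 without control 2.

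Klf5, the Krüppel-like factor of dividing epithelium, was called higher in both lines with the ATP4B transgene (0.83 and 0.89), and so was Ehf, an ETS factor of epithelia (0.76 and 0.91). Grhl1, a grainyhead-like epithelial factor, was called lower in the same lines (-0.85 and -0.68). Elf3 and Grhl2 were called in none. Pdx1, at 0.314 and 0.0554 CPM in the controls, read 0.922 to 8.10 CPM in the lines and was called higher in GIF-DTR and GIF/ATP4B-DTR (edgeR adjusted p = 0.0434 and 0.0274). Its within-group spread was wide, with 1.54, 0.922 and 7.08 CPM in ATP4B-DTR. Leaving out either control ended the Pdx1 calls (edgeR adjusted p = 0.121 and 0.198 for GIF-DTR, 0.0696 and 0.166 for GIF/ATP4B-DTR, without control 1 and 2 respectively). The Klf5 calls were lost in the same way (edgeR adjusted p = 0.0667 to 0.169), and so was that of Ehf in ATP4B-DTR (0.0735 and 0.0919). The Grhl1 calls were lost without control 1 (edgeR adjusted p = 0.131 and 0.224).

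Of 17 factors of secretory, parietal, endocrine and progenitor lineages, 13 were tested. The counts higher and lower were 4 and 1 in ATP4B-DTR, 3 and 3 in GIF-DTR, and 3 and 5 in GIF/ATP4B-DTR. Sox4, Myb and Ascl2, which also stands in the intestinal list, were called higher in all 3 lines, and Esrrb lower in all 3. Myb, a factor of proliferating progenitors, rose from 1.58 ± 0.12 CPM (SD) in controls to 8.66 ± 2.55, 7.96 ± 2.17 and 10.6 ± 2.75 in the lines, and its call held in all 19 alternatives of each comparison. The 6 genes of dividing cells (Mki67, Top2a, Ccnb1, Cdk1, Mcm5 and Pcna) were called higher in each line, 6 of 6. Without control 2 the calls of Mki67 in both single lines, and of Ccnb1 and Pcna in GIF-DTR, were lost (edgeR adjusted p = 0.0509 to 0.108). Sox4 lost its calls in both lines with the ATP4B transgene without either control (edgeR adjusted p = 0.0840 to 0.168).

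Esrrb, an orphan nuclear receptor, fell from 13.0 ± 1.41 CPM in controls to 0.538 ± 0.177, 5.19 ± 1.92 and 0.397 ± 0.198 in the lines. Its call in GIF-DTR was lost without either control (edgeR adjusted p = 0.176 and 0.111) and without any of 4 line samples (0.0564 to 0.140). Its relative Esrrg, needed for the parietal cell program, was called lower in GIF-DTR and GIF/ATP4B-DTR (-0.93 and -1.42). Creb3l1, a regulator of secretory vesicles, was called lower in the same lines (-1.04 and -1.26). In GIF-DTR the Esrrg call was lost without control 1 (edgeR adjusted p = 0.0673), and the Creb3l1 call without either control (0.0712 and 0.0783), GIF-DTR 2 or GIF-DTR 3 (0.0536 and 0.0640). Creb3l4 and Xbp1, factors of the secretory pathway, were called lower in GIF/ATP4B-DTR (-1.73 and -0.50). Parietal markers summed to 15914 to 16908 CPM in controls and to 3076 to 4379, 7224 to 9395 and 1014 to 2409 in the lines. Their part in these factors' values was not tested.

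**Figure D4:**
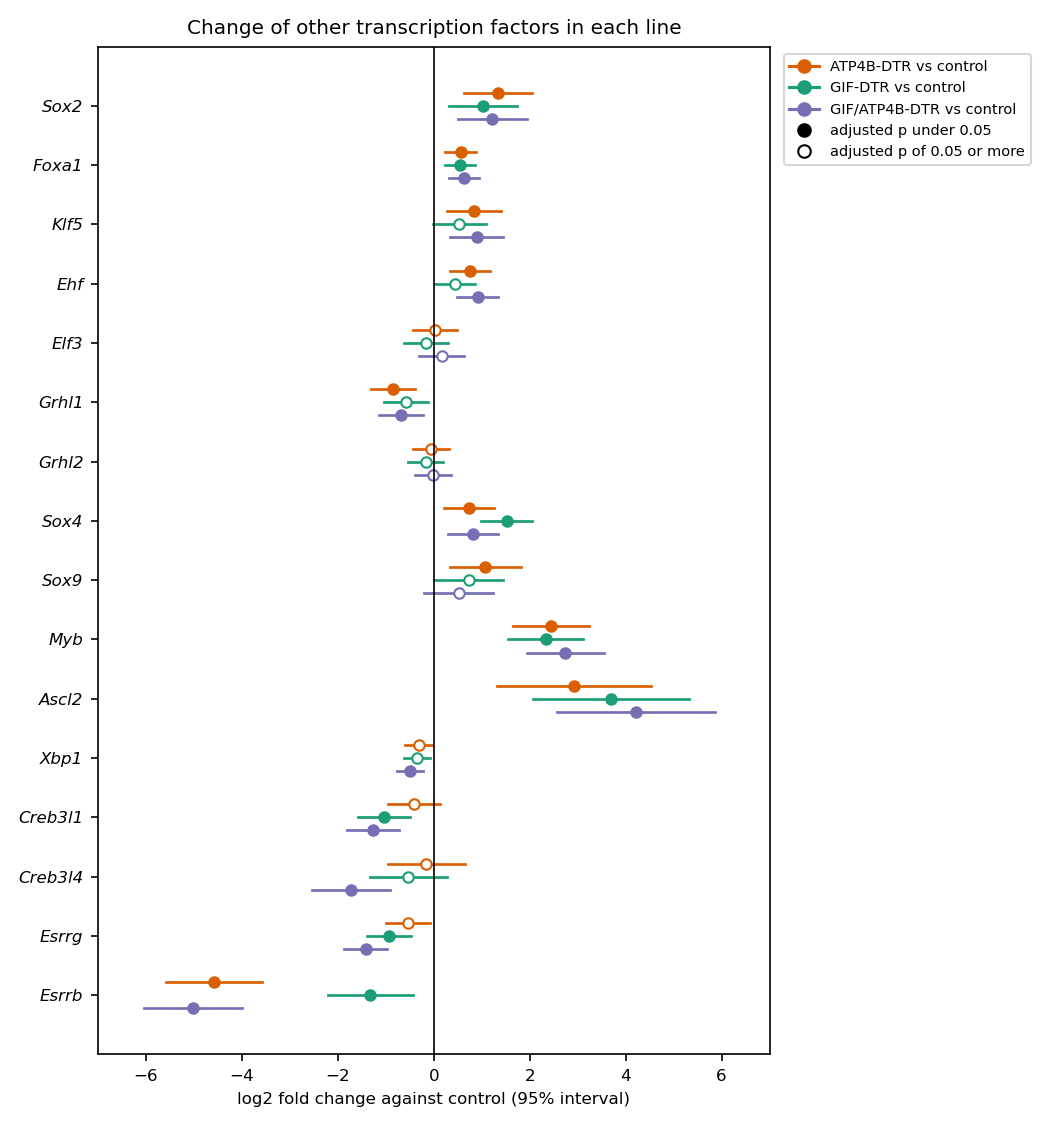
Log2 fold change against control, with 95% intervals, of 16 further transcription factors in each line; filled points have an edgeR adjusted p under 0.05. Sox2, Foxa1, Sox4, Myb and Ascl2 are filled on the right in all 3 lines and Esrrb on the left, at -4.58, -1.32 and -5.02.

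Genes listed as mucous neck products moved in opposite directions. Muc6, the gland mucin, fell from 358 ± 36.0 CPM (SD) in controls to 65.2 ± 32.9, 28.7 ± 9.92 and 9.85 ± 4.91 in the lines. Cftr, a chloride channel, and Aqp5, a water channel, were called higher in all 3 lines: Cftr went from 0.318 CPM in controls to 11.6, 14.7 and 30.2, and Aqp5 from 2.57 to 13.7, 19.4 and 23.5. Tff2, the neck cell trefoil peptide, was called in none. Of the 6 listed genes, 3, 2 and 2 were called higher in the lines and 1 lower in each. Cftr and Aqp5 were low in controls beside Muc6, and whether they mark neck cells of the normal corpus was not tested. Among markers of squamous forestomach, Krt5, Krt6a, Trp63 and Sprr3 had 0 counts in all 11 samples. Of 3 tested, Krt13 was called higher in ATP4B-DTR, at 11.9 ± 9.13 CPM (SD) against 0.610 ± 0.471 in controls (edgeR adjusted p = 0.0142). Ivl was called higher in GIF/ATP4B-DTR, at 2.78 ± 2.88 against 0.0225 ± 0.0318 CPM (edgeR adjusted p = 0.00562). The 10 squamous genes summed to 0.832 to 1.26 CPM in controls and to 2.78 to 20.6, 2.28 to 3.17 and 2.58 to 8.83 CPM in the lines.

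The genes whose log2 CPM followed each factor most closely over the 11 samples were sought among 9168 genes with a mean of at least 8 CPM. Klf4 was followed by Klf3, another Krüppel-like factor, with a Pearson r of 0.97, and by Slc45a3 (0.96). Spdef was followed by Tstd1 (0.96) and Cst3 (0.95), Hnf4a by Ern2 (0.95) and Cttn (0.95), and Foxa3 by Ang (0.95) and Apol7a (0.94). Foxq1 was followed by Cacna1b (0.94) and Arrdc1 (0.94), Gata4 by Gpd1l (0.93) and Traf6 (0.93), and Foxa2 by Clptm1 and Nadsyn1 (0.92 each). Gata6 had the least close neighbours, Naxe (0.88) and Rabep2 (0.86). These are the highest of many correlations over samples that share group differences, and are given as a description.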

How the data were processed

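Estimated counts per gene, as the authors deposited them, were used for 11 samples of mouse corpus mucosa: 30.7% of the nonzero values are fractional, although none of the 10 factors' values are. Libraries were stranded and made from polyadenylated RNA, per the labels' protocols. Reads were placed on mm10, per the submitters' processing notes; the aligner, counter, annotation and strand setting are not given in the sources used here. The 2 antisense genes overlapping Gata6 and Hnf4a are not described here, nor is Gm25881, which overlaps Hnf4a on the same strand. Symbols matched 99.2% of identifiers.

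Counts were rounded and tested with edgeR 4.0.16 (R 4.3.3): filterByExpr, TMM scaling, robust quasi-likelihood fits with 1 coefficient per group over all 11 samples, and Benjamini-Hochberg adjustment over 14889 genes, called at 0.05. The script was tested on simulated counts. The common biological coefficient of variation was 26.6%. CPM use unrounded counts; correlations use log2(CPM + 0.5). Depth was 20.7 to 27.9 M counts. With the TMM factors applied, 3 counts equal 0.107 to 0.166 CPM. Alternatives were 3 scalings (DESeq2 size factors, TMM without the 50 most abundant genes, and the 13 pan-epithelial genes), DESeq2 1.42.0, no filter, no robust moderation, a Y-linked index as covariate, only the groups compared, and leaving out each sample.

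The named genes were the 10 factors, the genes naming the lines, members of marker lists, and the 2 genes most correlated with each factor. The factors and lists were chosen with earlier results of these data known, and the immediate early list was added after their values were seen.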

Additional observations from a re-analysis of the deposited data

How the results depend on the processing

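Having 2 controls limits every comparison with control, and leaving out 1 leaves a lone sample assumed to vary like the other groups. Of 1056 values of the 8 factors under alternatives, 16 gained a call, 2 lost one and 0 called values reversed; of the 1021 uncalled in both fits, 73 changed sign. Scaling by the pan-epithelial genes moved the median of all genes by -0.26 on the log2 scale in GIF/ATP4B-DTR against control, and the share of calls that were higher from 54.2% to 27.6%; in ATP4B-DTR that share went from 56.5% to 46.3%. Without control 2 the higher share was 41.2%, 48.2% and 47.9% in the 3 lines against control. No paired analysis was possible because only the controls carry replicate numbers in the labels. Where an effect depended on a setting, the cause was not tested.

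Among the 8 factors, GIF/ATP4B-DTR against control had 1 call, 2 with TMM without the most abundant genes (Foxa2 and Spdef; 34.7% of all genes), 4 with pan-epithelial scaling (Gata4, Foxa2, Spdef and Klf4; 28.2%), 3 with DESeq2 (Gata4, Foxa2 and Spdef; 38.5%), and 0 to 2 on leaving out a sample. ATP4B-DTR against control had 0 calls and 1 with DESeq2 (Foxa2; 26.7% of all genes), with 0 to 0 on leaving out a sample. GIF-DTR against control, GIF-DTR against ATP4B-DTR and GIF/ATP4B-DTR against ATP4B-DTR each had 0 to 1 on leaving out a sample, the 1 being Spdef without ATP4B-DTR 3. GIF/ATP4B-DTR against GIF-DTR had 1 with pan-epithelial scaling (2.49% of all genes) and 1 with DESeq2 (6.63%), Gata6 in both.

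The share of all genes called in ATP4B-DTR against control went from 21.6% to 11.5% with pan-epithelial scaling and 13.5% with the Y-linked index, and ranged from 8.51% (without control 2) to 22.4% on leaving out a sample. It was 13.8% without control 1. GIF-DTR against control went from 16.8% to 7.11% and 3.30% with these settings, and to 5.63% (without control 2) to 17.7%; it was 7.31% without control 1, 10.9% without GIF-DTR 2 and 7.34% without GIF-DTR 3. GIF/ATP4B-DTR against control ranged from 18.6% (without control 2) to 34.0%, around 33.6%. The single lines differed in 0.49% of genes, 0.309% with pan-epithelial scaling, 2.57% with DESeq2, 0.148% with the Y-linked index, and 0.114% (without ATP4B-DTR 1) to 0.942% (without ATP4B-DTR 3). The double line against ATP4B-DTR went from 0% to 1.87% with DESeq2, 0.254% without the filter, 0.00672% with the Y-linked index and 0.00722% with only the groups compared, and 0% to 0.289%. Against GIF-DTR it went from 2.53% to 6.63% with DESeq2 and 0.101% with the Y-linked index, and 1.08% to 2.54%. Where GIF-DTR is compared with control or the double line, that index and the line cannot be told apart. The interaction went from 0.651% to 0.383% with DESeq2 size factors, 0.134% with pan-epithelial scaling, 4.90% with DESeq2, 0.851% without the filter, 0.410% without robust moderation and 0.0336% with the Y-linked index, and 0% (without control 2) to 1.86%. Alpi, an intestinal phosphatase, was the only reversal among context genes: in GIF/ATP4B-DTR against control it was -0.60 and uncalled, ranged from -1.53 to 3.09 on leaving out a sample, and was called at 3.09 without control 1 (edgeR adjusted p = 0.0304).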
